A study of Rattus norvegicus with 12 samples.

Results

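The milk protein genes are a small set that a mammary epithelial cell turns on when it makes milk. The genes sought were Wap (whey acidic protein), Csn2 (beta-casein), Csn3 (kappa-casein), Csn1s1 and Csn1s2a (calcium-sensitive caseins), Lalba (alpha-lactalbumin) and Glycam1 (a secreted mucin-like glycoprotein). They were found by gene symbol in the array's annotation. Of these 7 genes, 6 were found, each as 1 probe set among 31099 probe sets on the array and as 1 gene among 14217 genes. The probe sets were 1387751_at for Wap, 1368913_at for Csn2, 1369591_at for Csn3, 1388183_at for Csn1s1, 1387838_at for Lalba and 1368337_at for Glycam1. Csn1s2a was not found under its symbol and was not analysed here. All members were used in every sample, without a filter on low values.

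RNA came from the abdominal mammary gland pairs of Sprague-Dawley females, and 8 µg of each sample was labelled with biotin and hybridised to 1 of 12 Affymetrix arrays. All rats ate a diet based on soy protein isolate or on casein from postnatal day 30 to day 64, and all lost their ovaries on day 50. For the last 14 days they received 17β-estradiol (E2) or vehicle, the E2 from a mini-osmotic pump. The 4 groups were soy + E2, soy, casein + E2 and casein, with 3 pools each, so that the casein and soy groups without E2 were ovariectomized and given no estrogen. The label of the casein + E2 group names only estradiol. Its diet was taken as casein because E2 was given within both diets and the other E2 group names soy. The word casein means the diet in group names, and the casein genes are called by their symbols.

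Milk protein genes are switched on in luminal secretory cells. Prolactin acts through its receptor, the kinase Jak2 and the transcription factors Stat5a and Stat5b, together with glucocorticoids and the epithelial factor Elf5. Caseins carry calcium and phosphate in micelles, and kappa-casein coats and stabilises the micelle. Alpha-lactalbumin is the regulatory subunit of lactose synthase, and whey acidic protein is a major whey protein of rodents. Glycam1 is also made by the high endothelial venules of lymph nodes, and a lymph node lies within the abdominal (inguinal) fat pad. Estradiol acts on the gland through its receptor, and progesterone receptor (Pgr) and amphiregulin (Areg) are well known targets. In rats it is also known to raise prolactin secretion by the pituitary. Prolactin was not among the values used here.

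Each value below is on the log2 scale relative to that probe set's own median over the 12 arrays, so 0 is a middle array and not a level. Levels of different genes therefore could not be compared, and no gene could be called present or absent. Nor could the defining markers of mammary tissue be checked as present or absent, and 1 label field names the liver although the tissue source is given as mammary gland. Casein + E2 pools 2 and 3 differed by an SD of only 0.163 over all probe sets, against at least 0.302 for the other 65 pairs of arrays, and 0 probe sets differed by over 1 log2 unit. They were averaged and counted as 1 sample in every test, which left 11 samples. Other arrays stood apart in markers of other tissues. The mean of 18 skeletal muscle genes was 3.52 in soy pool 2, and 3.39 and 1.56 in casein pools 2 and 1, against at most 0.52 elsewhere. The mean of 22 liver genes was 4.87 in casein pool 3, against at most 0.35 elsewhere. The labels do not say whether the pools of a group hold different animals, and p-values therefore reflect only how these pools varied.

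Promoter sequences of 5 members are shown because they carry, or lack, short motifs of the factors named above. They are RefSeq sequences of the GRCr8 assembly and run from 180 bases before the gene's start to the base before it, on the gene's strand. All 7 members were matched. Capitals mark matches to the STAT5 motif TTCNNNGAA and to the TATA-like element TTTAAA. The first 2 sequences, of caseins that lie in 1 cluster, hold the STAT5 motif at nearly the same distance from the start. Glycam1 has it farther away, and Wap and Csn3 hold none in the 250 bases searched.
Csn2, chr14:20601644-20601823, + strand: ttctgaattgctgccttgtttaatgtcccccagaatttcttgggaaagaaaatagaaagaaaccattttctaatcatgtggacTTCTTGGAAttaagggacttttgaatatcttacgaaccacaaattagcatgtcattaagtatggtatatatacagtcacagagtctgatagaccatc
Csn1s1, chr14:20638850-20639029, - strand: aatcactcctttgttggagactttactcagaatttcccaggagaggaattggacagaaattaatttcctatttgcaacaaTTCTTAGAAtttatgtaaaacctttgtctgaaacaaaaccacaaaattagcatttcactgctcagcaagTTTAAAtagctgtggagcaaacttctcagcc
Glycam1, chr7:136561300-136561479, - strand: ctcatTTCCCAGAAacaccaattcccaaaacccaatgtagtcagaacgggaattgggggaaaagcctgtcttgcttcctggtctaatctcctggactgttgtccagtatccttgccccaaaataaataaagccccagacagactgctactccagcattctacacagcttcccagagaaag
Wap, chr14:85719160-85719339, - strand: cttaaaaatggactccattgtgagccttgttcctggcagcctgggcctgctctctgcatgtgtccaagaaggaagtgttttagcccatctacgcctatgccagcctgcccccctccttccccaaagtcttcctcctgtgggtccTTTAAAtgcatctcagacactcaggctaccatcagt
Csn3, chr14:20439831-20440010, - strand: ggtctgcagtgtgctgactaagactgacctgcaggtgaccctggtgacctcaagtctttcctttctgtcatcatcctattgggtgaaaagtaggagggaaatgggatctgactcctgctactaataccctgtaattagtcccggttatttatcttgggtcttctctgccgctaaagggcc

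Motifs were searched on both strands in the 250 bases before the start, and the same search was made in 33469 rat promoters. The STAT5 motif lay at -97 to -89 in Csn2, at -100 to -92 in Csn1s1, at -102 to -94 in the unmeasured Csn1s2a and at -175 to -167 in Glycam1. Of all promoters 7.67% held it. The 3 casein promoters with the motif also shared a 9-base run, AATTAGCAT, which starts at -56 in Csn2 and Csn1s1 and at -60 in Csn1s2a and which 0.123% of promoters hold. TTTAAA stood at -36 to -31 in Wap, -31 to -26 in Csn1s1 and -34 to -29 in Csn1s2a, and 12.3% of promoters held it. No member held TATAAA, found in 12.9% of promoters.

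No member held the full palindromic estrogen response element, which was found in 0.0239% of promoters. Csn3 held 1 arm of it, GGTCA, at 3 places on the opposite strand, at -156 to -152, -145 to -141 and -136 to -132. At least 1 such match was found in 35.4% of promoters. AGAACA, a short motif of the glucocorticoid receptor, stood at -245 to -240 in Csn3 and -246 to -241 in Csn1s2a and was found in 17.5% of promoters. Lalba held none of these motifs. A match is a run of letters, and binding was not measured.

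**Figure D1:**
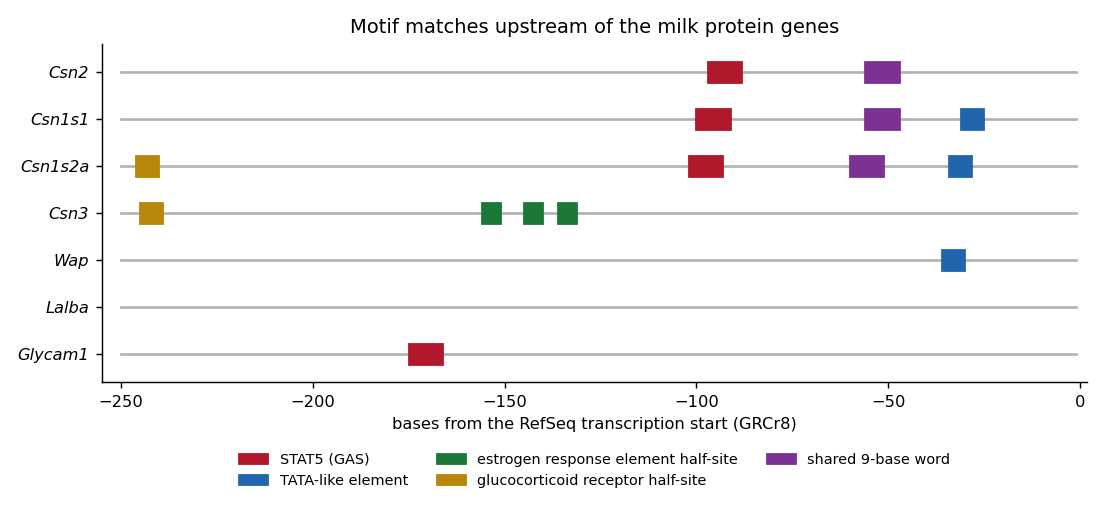
Motif matches in the 250 bases before the start of the 7 milk protein genes, drawn to scale as distance from the start in bases. The STAT5 motif stands between -102 and -89 in Csn2, Csn1s1 and Csn1s2a, farther away in Glycam1, and is not in this window of Wap, Csn3 or Lalba.

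All 6 measured milk protein genes rose with E2 when the 2 diets were averaged. The rise was widest in the whey protein gene Wap, large in Csn2 and Glycam1, intermediate in Csn3, and about 1 log2 unit in Csn1s1 and Lalba. A gene was called where limma's p, adjusted by Benjamini-Hochberg over all genes, was under 0.05. All 6 passed, where 6.73% of genes were called higher and 5.51% lower. The median change of the 6 was 2.74, against 0.00 over all genes. In whole glands more cells of a type and more RNA per cell cannot be told apart.

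Wap stood at 3.27, 3.09 and 1.22 in the soy + E2 pools, against -3.73, -3.93 and -2.93 in the soy pools. In casein + E2 pools it stood at 2.54, 2.89 and 3.06, against -1.31, -4.42 and -1.22 in casein pools. The 6 arrays with E2 lay above the 6 without, with 2.43 log2 units between the closest of them. Wap rose by 5.56 ± 0.62 (SE of the fit over 11 samples), or 47.3-fold, with a limma adjusted p of 0.00384. The group means were 2.53 ± 1.14 in soy + E2, -3.53 ± 0.53 in soy, 2.76 ± 0.31 in casein + E2 and -2.31 ± 1.82 in casein pools (SD, n = 3, 3, 2 and 3). The fitted rise was the highest fitted change among the 14217 genes.

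Csn2, the beta-casein gene, had values of 1.06, 0.99 and 0.64 in soy + E2 pools and of -3.63, -4.29 and -2.53 in soy pools. In casein + E2 pools Csn2 had values of 0.90, 0.78 and 1.04, against -0.84, -5.98 and -0.64 in casein pools. The E2 arrays spanned 0.42 log2 units and the arrays without E2 spanned 5.34, with casein pool 2 far below the others. The group means were 0.90 ± 0.23 in soy + E2, -3.48 ± 0.89 in soy, 0.90 ± 0.01 in casein + E2 and -2.49 ± 3.03 in casein pools (SD, n = 3, 3, 2 and 3). The fitted rise was 3.88 ± 0.89, or 14.8-fold (limma adjusted p = 0.0258). Without casein pool 2 and soy pool 2, the arrays of highest muscle marker score, it was 2.81 ± 0.22 (adjusted p = 0.0129).

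Csn3, which encodes the kappa-casein of the micelle surface, had values of 0.86, 0.86 and 0.14 in soy + E2 pools, against -0.93, -1.15 and -1.79 in soy pools. In casein + E2 pools its values were 1.01, 0.94 and 1.03, against -0.14, -0.94 and -0.32 in casein pools. No E2 array fell within the range of the others, but soy + E2 pool 3 and casein pool 1 were only 0.29 apart. The group means were 0.62 ± 0.41 in soy + E2, -1.29 ± 0.45 in soy, 1.0 ± 0.02 in casein + E2 and -0.47 ± 0.42 in casein pools (SD, n = 3, 3, 2 and 3). The rise of Csn3 was 1.69 ± 0.21, or 3.22-fold (limma adjusted p = 0.00487).

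Csn1s1, an alpha-casein gene, lay at 0.40, 0.36 and 0.16 in soy + E2 pools, against -0.63, -0.29 and -1.24 in soy pools. It lay at 0.58, 0.59 and 0.70 in casein + E2 pools, against -0.20, -0.87 and -0.16 in casein pools. The groups did not overlap, by a margin of 0.32. The group means were 0.31 ± 0.13 in soy + E2, -0.72 ± 0.48 in soy, 0.62 ± 0.05 in casein + E2 and -0.41 ± 0.40 in casein pools (SD, n = 3, 3, 2 and 3). Csn1s1 rose by 1.03 ± 0.18, or 2.04-fold (limma adjusted p = 0.0133).

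Lalba, the lactose synthase subunit gene, lay at 0.48, 0.43 and -0.03 in soy + E2 pools, against -0.34, -0.39 and -1.27 in soy pools. The casein + E2 pools gave 0.69, 0.69 and 0.65, against -0.26, -1.19 and 0.03 in casein pools. Within each diet the E2 pools were higher, but soy + E2 pool 3 lay 0.07 below casein pool 3, so that Lalba was the one member whose E2 and vehicle arrays overlapped. The group means were 0.29 ± 0.28 in soy + E2, -0.67 ± 0.52 in soy, 0.68 ± 0.01 in casein + E2 and -0.47 ± 0.64 in casein pools (SD, n = 3, 3, 2 and 3). It rose by 1.05 ± 0.25, or 2.08-fold (limma adjusted p = 0.0279).

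Glycam1 had 1.75, 1.68 and 0.96 in soy + E2 pools, against -4.84, -1.58 and -0.52 in soy pools. In casein + E2 pools it had 0.52, 1.49 and 1.63, against -2.24, -4.73 and -1.28 in casein pools. All E2 arrays lay above all others by at least 1.04, while the arrays without E2 ranged over 4.32 log2 units. The group means were 1.46 ± 0.44 in soy + E2, -2.31 ± 2.25 in soy, 1.04 ± 0.73 in casein + E2 and -2.75 ± 1.78 in casein pools (SD, n = 3, 3, 2 and 3). The rise was 3.78 ± 0.83, or 13.8-fold (limma adjusted p = 0.0229).

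**Figure D2:**
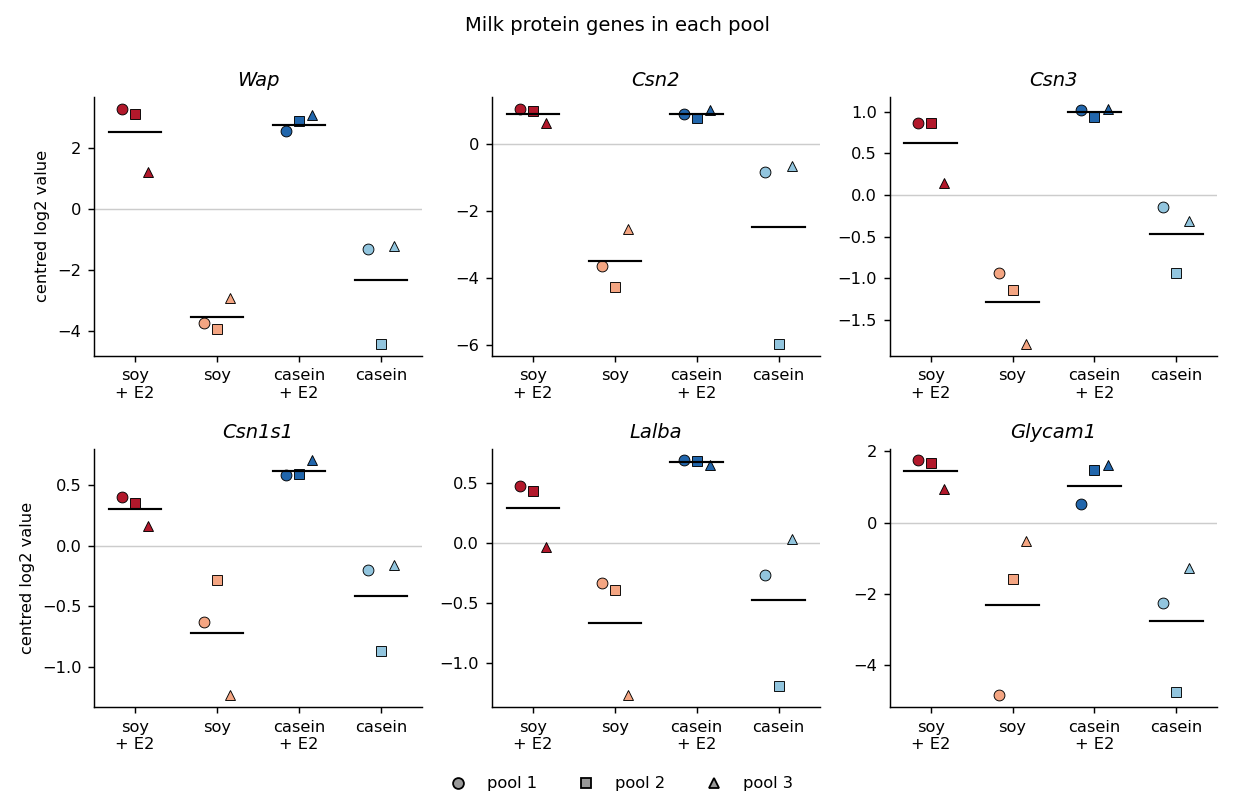
Value of each of the 6 measured milk protein genes in every pool (points; bars are group means, with casein + E2 pools 2 and 3 counted as 1 sample), on the log2 scale relative to the median of the 12 arrays. Each gene has its own vertical scale, and groups run soy + E2, soy, casein + E2 and casein. The E2 pools lie above the pools without E2 in each diet for all 6 genes, and over both diets together the arrays without E2 are the more widely spread.

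The arrays of E2-treated and vehicle-treated rats did not overlap for 5 of the 6 members, where 4.26% of all genes were higher without overlap. Within a diet the count was 6 of 6 in soy-fed rats and 6 of 6 in casein-fed rats, against 12.6% and 22.5% of all genes. Most members shared their lowest E2 array, while their lowest array without E2 differed. Soy + E2 pool 3 was the lowest E2 array in 5 members, and casein + E2 pool 1 was in Glycam1. Without E2, soy pool 3 was lowest in 3 members, casein pool 2 in 2 and soy pool 1 in 1, and casein pool 3 was highest in 4.

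The calls of the averaged E2 effect rested unevenly on single pools. Wap and Csn3 were called in each of 12 fits that left out 1 array, Csn1s1 in 11, Lalba and Glycam1 in 9 each and Csn2 in 8. Without casein + E2 pool 1, which left 1 sample in that group, the changes ran from 1.04 (Csn1s1) to 5.67 (Wap). Over all genes the calls were 957 higher and 784 lower with all arrays. They were 392 and 250 without soy + E2 pool 1, and 384 and 256 without soy + E2 pool 2. Without soy + E2 pool 1 or pool 2 the count of called members was 3. Without casein pool 2 and soy pool 2 it was 4, in a fit that called 179 genes higher and 68 lower. Leaving out casein pools 2 and 3, whose muscle and liver scores stood out, left 1 sample in the casein group, which limits that fit.

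Taken diet by diet, 2 members were called in each. In soy-fed rats Wap rose by 6.06 ± 0.83 (limma adjusted p = 0.0311) and Csn3 by 1.91 ± 0.28 (adjusted p = 0.0398), where 0.183% of genes were called higher and 0.0352% lower. The other members had positive changes that missed the threshold in soy-fed rats: Csn2 4.38 ± 1.18 (adjusted p = 0.113), Glycam1 3.78 ± 1.10 (0.124), Csn1s1 1.02 ± 0.25 (0.0942) and Lalba 0.96 ± 0.33 (0.158). Without soy pool 1 the change of Glycam1 was 2.51. The soy-fed count fell to 0 without any one of the soy pools, soy + E2 pool 1 or 2, casein pool 1 or casein + E2 pool 1, and was 1 without casein pool 3. It was 3 without casein pool 2. Over all genes the calls with all arrays were 26 higher and 5 lower. They fell to 5 and 1 without casein pool 1, to 3 and 1 without soy pool 1, and to 0 without soy pool 2 or 3. Without soy + E2 pool 1 or 2 they were 2 and 1 higher, with 0 lower. Without casein pool 3 they were 17 and 5, and without casein pool 2 they were 37 and 9.

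In casein-fed rats Wap rose by 5.07 ± 0.93 (limma adjusted p = 0.0352) and Csn3 by 1.47 ± 0.32 (adjusted p = 0.0464), where 1.48% of genes were called higher and 0.95% lower. Csn2 had a change of 3.39 ± 1.32 (adjusted p = 0.191), which was 1.64 without casein pool 2. Glycam1 had 3.79 ± 1.23 (0.128), Lalba 1.15 ± 0.37 (0.125) and Csn1s1 1.03 ± 0.28 (0.0807). This count was 0 without casein pool 1 or 2, casein + E2 pool 1, soy pool 2 or soy + E2 pool 2. It was 1 without casein pool 3, casein + E2 pool 3 or soy + E2 pool 1, and 1 with the side of the spike-in controls (above 0 in 1 of 3 casein + E2 pools and 3 of 3 casein pools) as a term. Over all genes the calls were 211 higher and 135 lower with all arrays. They fell to 15 and 2 without casein pool 1, and to 11 and 1 without casein pool 2. They were 51 and 17 without soy pool 2, 98 and 42 without soy + E2 pool 2, and 113 and 44 without casein pool 3.

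**Figure D3:**
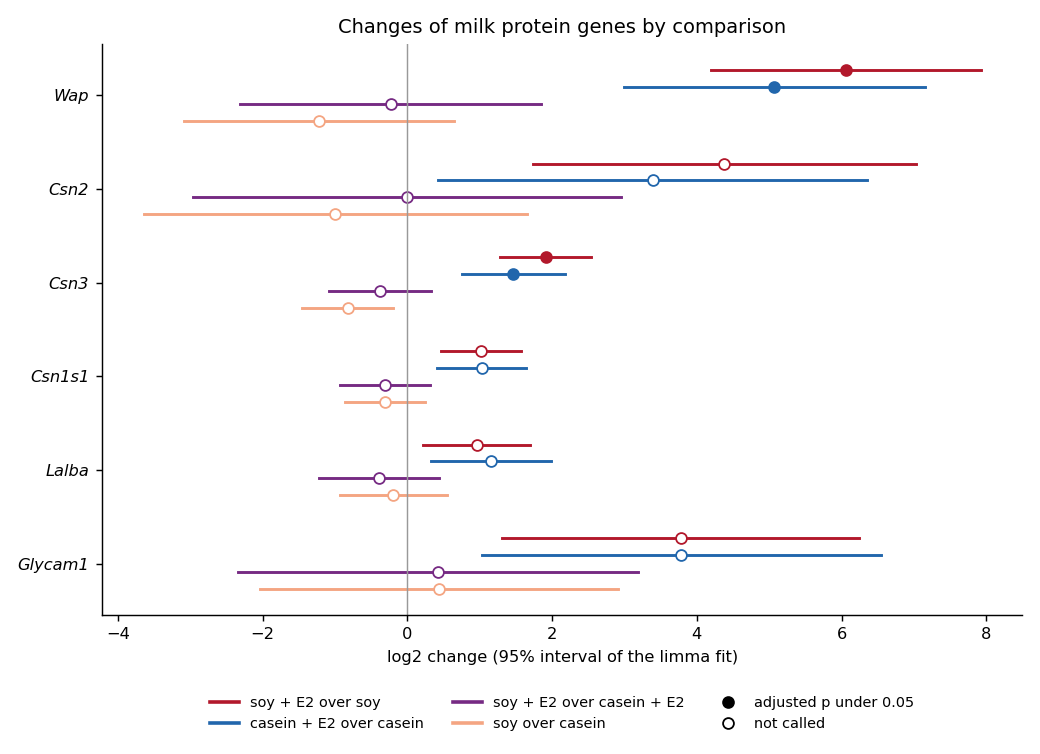
Fitted log2 changes of the 6 milk protein genes with 95% intervals, for E2 in soy-fed and casein-fed rats and for soy over casein with and without E2. Filled points (Wap and Csn3 under E2 in both diets) had an adjusted p under 0.05, and all intervals of the E2 changes lie above 0.

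Whether E2 acted differently in the 2 diets was tested by the interaction, the E2 change in soy-fed minus that in casein-fed rats. No member was called, with an adjusted p of 0.856 or more by limma, and 0.0% of genes were called in either direction (929 had an unadjusted p under 0.05). A fit with array weights called 5 genes and a fit to 12 separate arrays called 4. Fits with a block on pool number or with the spike-in term called 1 each. These genes were all lower and none was a member. The difference was 0.98 ± 1.25 for Wap, with a 95% interval of -1.81 to 3.78, and 0.99 ± 1.77 for Csn2 (-2.98 to 4.96). Csn3 gave 0.44 ± 0.42 (-0.50 to 1.39) and Csn1s1 -0.00 ± 0.37 (-0.83 to 0.82). Lalba gave -0.20 ± 0.50 (-1.31 to 0.92) and Glycam1 -0.01 ± 1.65 (-3.72 to 3.69). These values depended on casein pool 2. Without it the difference was 2.04 ± 0.80 for Wap (0.21 to 3.87, adjusted p = 0.477) and 2.74 ± 0.59 for Csn2 (1.40 to 4.07, adjusted p = 0.34), so both intervals lay above 0 and neither gene was called. The interval of Glycam1 still ran from -2.45 to 4.41. Casein pool 2 was the lowest array in Wap and Csn2, so leaving it out shifts their differences and narrows their intervals by construction. Those 2 intervals are therefore no test of the interaction.

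Soy was also set against casein in rats without E2, and no member was called. The change of soy over casein was -1.22 ± 0.83 for Wap (-3.08 to 0.65), -1.0 ± 1.18 for Csn2 (-3.64 to 1.65) and -0.82 ± 0.28 for Csn3 (-1.46 to -0.19). The limma adjusted p of these genes was 0.629, 0.803 and 0.43. With all pools Csn3 alone had an unadjusted p under 0.05, and its groups overlapped only in soy pool 1 (-0.93) and casein pool 2 (-0.94). Csn1s1 gave -0.31 ± 0.25, Lalba -0.19 ± 0.33 and Glycam1 0.44 ± 1.10, none of them called. Without casein pool 2, the array far below the others in Csn2, the change was -2.27 ± 0.57 for Wap (-3.56 to -0.98, adjusted p = 0.267) and -2.74 ± 0.41 for Csn2 (-3.69 to -1.80, adjusted p = 0.2). Csn3 gave -1.06 ± 0.28 (adjusted p = 0.267), Csn1s1 -0.54 ± 0.23 (adjusted p = 0.367) and Glycam1 -0.56 ± 1.06 there, and still no member was called. Casein pool 2 was the lowest array in Wap and Csn2, so leaving it out raises their casein mean and narrows the spread by construction. These intervals are therefore no test of a diet effect, and they rest on casein pools 1 and 3, the last high in liver markers. Of all genes 0.0% were called higher or lower, 1472 had an unadjusted p under 0.05, and the median change of the members was -0.57 against -0.01 over all genes. With arrays weighted by their estimated quality, Wap (-2.15, adjusted p = 0.0382) and Csn3 (-0.96, adjusted p = 0.0229) passed the threshold, in a fit that called 1136 genes higher (7.99%) and 452 lower (3.18%). The hybridisation spike-in controls also differed between these groups without E2. Their mean was above 0 in 1 of 3 soy pools and in 3 of 3 casein pools, but in 1 of 3 pools of each E2 group. It was 1.11 in casein pool 2 against at most 0.26 on any other array. With the side of 0 as a term, the change of Csn3 was -0.60 ± 0.31 (-1.31 to 0.11), and its unadjusted p was no longer under 0.05.

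With E2 in both diets, no member was called for soy over casein. The change of soy + E2 over casein + E2 was -0.23 ± 0.93 for Wap (-2.31 to 1.85), -0.01 ± 1.32 for Csn2 (-2.96 to 2.95) and -0.38 ± 0.32 for Csn3 (-1.09 to 0.33). It was -0.31 ± 0.28 for Csn1s1, -0.39 ± 0.37 for Lalba and 0.42 ± 1.23 for Glycam1 (-2.34 to 3.18). The limma adjusted p was 0.999 for each, and of all genes 0.0% were called higher and 0.00703% lower. The soy + E2 pools of Csn3, Csn1s1 and Lalba nonetheless all lay below their casein + E2 pools, 3 of 6 members, where 12.8% of all genes were lower without overlap.

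Luminal cell markers moved with the milk protein genes. Of 21 luminal genes measured, 13 rose with E2 averaged over diets, 1 fell (Krt7) and 7 were not called, with a median change of 1.0 against 0.00 over all genes. Over all genes 6.73% were called higher and 5.51% lower. Cd24, a surface glycoprotein of luminal cells, rose by 1.88 (limma adjusted p = 0.0105). The mean of the list was 0.47, 0.37 and -0.03 in soy + E2 pools, against -0.17, -0.51 and -1.23 in soy pools. In casein + E2 pools it was 0.45, 0.54 and 0.57, against -0.08, -0.89 and -0.03 in casein pools. Soy + E2 pool 3, lowest of the E2 pools for most members, was also the lowest E2 pool here.

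Set against the luminal mean of the same array, Wap still stood at 1.25 to 2.80 with E2 and at -3.56 to -1.19 without. Csn2 stood at 0.23 to 0.67 with E2 and -5.09 to -0.61 without, and Csn3 at 0.17 to 0.56 and at -0.76 to -0.04. For these 3 genes the E2 arrays still lay above all others. The share of all genes that did so on this scale was not counted. Csn1s1 (-0.07 to 0.19 with E2, -0.46 to 0.22 without), Lalba (-0.00 to 0.23 with E2, -0.30 to 0.12 without) and Glycam1 (0.07 to 1.31 with E2, -4.67 to 0.71 without) overlapped.

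On this relative scale the averaged E2 change was 4.69 ± 0.63 for Wap (adjusted p = 0.0309), 3.01 ± 0.94 for Csn2 (0.0321), 0.82 ± 0.08 for Csn3 (0.0309) and 2.91 ± 1.01 for Glycam1 (0.0365), by linear models with each gene's own variance. The changes of Lalba, 0.18 ± 0.08 (adjusted p = 0.0637), and of Csn1s1, 0.15 ± 0.13 (adjusted p = 0.274), missed the threshold. This scale sets the median of all genes at -0.87, and on it 0.626% of genes were called higher and 79.5% lower. Because most genes shift down, 12016 of 14217 had an unadjusted p under 0.05, against 4116 in the main fit. The adjusted threshold was therefore easier to pass here, and these calls are weaker than those of the main fit. In these linear models the unadjusted p was 0.0152 for Csn2 and 0.0235 for Glycam1. Within a diet no member was called on this scale, and of all genes 0 were called higher and 0 lower. The smallest adjusted p of any gene in these models was 0.0843 in soy-fed and 0.168 in casein-fed rats.

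**Figure D4:**
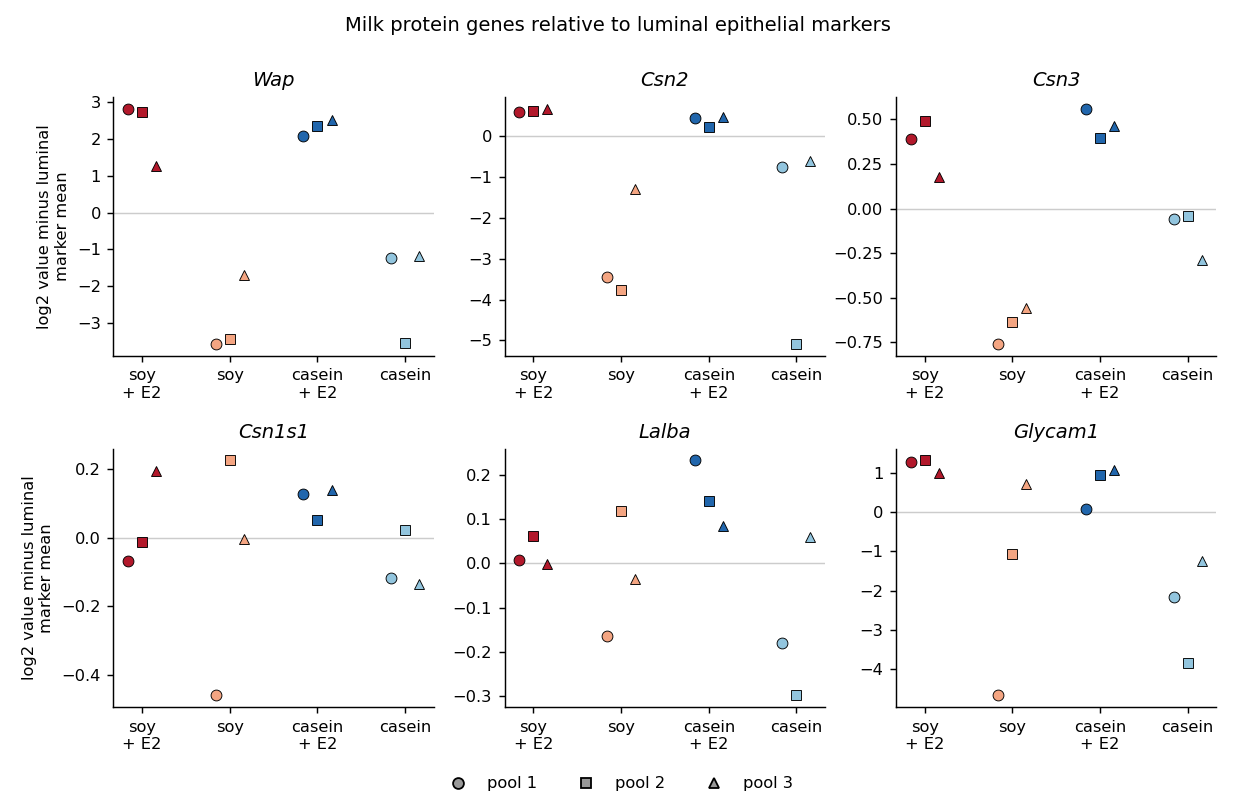
Each milk protein gene minus the mean of 21 luminal marker genes on the same array, in log2 units, for every pool in the order soy + E2, soy, casein + E2 and casein. Wap, Csn2 and Csn3 keep all E2 pools above all pools without E2, while Csn1s1, Lalba and Glycam1 overlap.

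Other cell types moved too. Of 16 basal or myoepithelial genes, 6 rose with E2 (Krt5 by 0.99, limma adjusted p = 0.0487) and 0 fell, and of 17 adipocyte genes 11 fell and 0 rose (Adrb3, the fat cell adrenergic receptor, fell by 2.12, adjusted p = 0.0124). Their part in the changes of the milk protein genes was not tested. None of 18 muscle genes was called, although their median change was -1.69. Of 22 liver genes only Rbp4 was called, lower, with a list median of -1.09. Over all genes 6.73% were called higher and 5.51% lower with E2.

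For Glycam1 the lymph node is the other known source, and the lymphocyte and high endothelial venule markers differed between pools. None of 17 lymphocyte genes was called for E2, with a median change of 0.28, and of 12 venule genes only St3gal6 was called, lower, with a list median of -0.02. The lymphocyte mean was 1.15, -0.77 and 0.72 in soy + E2 pools and -1.24, 1.56 and 2.0 in soy pools. It was -0.85, 0.58 and 0.58 in casein + E2 pools and -1.14, -0.90 and -0.88 in casein pools. Soy pool 1, the lowest array for Glycam1, was also lowest in lymphocyte markers, and soy pool 3, the highest array without E2 for Glycam1, was highest in them. Casein pool 2 did not follow that order: its Glycam1 value, -4.73, was nearly as low, while its lymphocyte mean of -0.90 was close to that of casein pool 3 (-0.88), where Glycam1 stood at -1.28.

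The venule mean was 0.21, -0.22 and 0.13 in soy + E2 pools, against -0.21, 0.35 and 0.43 in soy pools. It was -0.27, -0.02 and -0.04 in casein + E2 pools, against -0.37, -0.28 and -0.10 in casein pools. Soy + E2 pool 2 had the lowest lymphocyte score of its group and a Glycam1 value of 1.68, close to the 1.75 of pool 1. Casein + E2 pool 1 was the lowest of its group in both. The part of lymph node tissue in the Glycam1 values was not tested.

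Other genes of milk secretion were examined as a list of 40 measured genes. With E2 averaged over diets 23 rose and 0 fell, with a median change of 0.76, where 6.73% of all genes were called higher and 5.51% lower. The count of rises was 3 in soy-fed and 13 in casein-fed rats, where 0.183% and 1.48% of all genes were called higher. Wfdc3, a whey acidic protein domain gene, rose by 4.01 ± 0.42 (limma adjusted p = 0.00334) and Fabp3, a fatty acid binding protein of milk-secreting cells, by 3.91 ± 0.33 (0.00166). Lpo, the lactoperoxidase of milk, rose by 3.31 ± 0.23 (0.00119), with a value of 0.595 or more in every E2 pool and of -0.595 or less in every other pool.

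The phosphate transporter Slc34a2 rose by 2.81 ± 0.40 (limma adjusted p = 0.00747). Olah, the thioesterase that ends medium-chain fatty acid synthesis in the gland, rose by 2.56 ± 0.40 (0.00919). Obp3 rose by 2.33 ± 0.27 (0.00455) and Lao1, an amino acid oxidase of milk in mice, by 1.98 ± 0.24 (0.00487). Not called were Pigr, the immunoglobulin transporter (1.62 ± 0.89, adjusted p = 0.266), and 3 genes with negative changes that fat cells also express, Cd36 (-1.02 ± 0.30, 0.0522), Gpam (-0.97 ± 0.33, 0.0894) and Ces1d (-0.82 ± 0.33, 0.135). Pigr stood at 3.85 in casein pool 3, the array high in liver markers, and at -0.84 or less in every other pool without E2. In E2 pools Pigr ran from -0.15 to 2.24. The part of casein pool 3 in the missed call was not tested. In the contrasts of soy with casein 0 genes of the list were called.

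Among 28 genes that regulate lactation 10 rose and 2 fell with E2, where 6.73% of all genes were called higher and 5.51% lower. Stat5a rose by 1.12 ± 0.14 (limma adjusted p = 0.00487), Stat5b by 0.53 ± 0.11 (0.0191) and the kinase gene Jak2 by 0.48. Elf5 rose by 1.98 ± 0.34 (0.0124), with 0.07 or more in every E2 pool and -0.07 or less in every other pool. Cebpb, a transcription factor of epithelial differentiation, rose by 0.57 ± 0.16 (0.0442). The prolactin receptor gene Prlr, at 0.49 ± 0.19, did not pass (0.116), nor did the glucocorticoid receptor gene Nr3c1, at -0.27 ± 0.13 (0.224).

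Socs2 and Cish, feedback inhibitors that Stat5 is known to induce, gave 0.60 ± 0.21 (limma adjusted p = 0.0862) and -0.41 ± 0.17 (0.146). The progesterone receptor gene Pgr rose by 2.96 ± 0.26 (0.00187) and Areg by 3.82, and both were also called within each diet. Tnfsf11, the progesterone-induced RANK ligand gene, was not called (-0.16 ± 0.23, 0.691). The genes that fell were Igf1, by 1.52, and Ghr, the growth hormone receptor gene, by 1.16. In the contrasts of soy with casein 0 regulators were called.

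**Figure D5:**
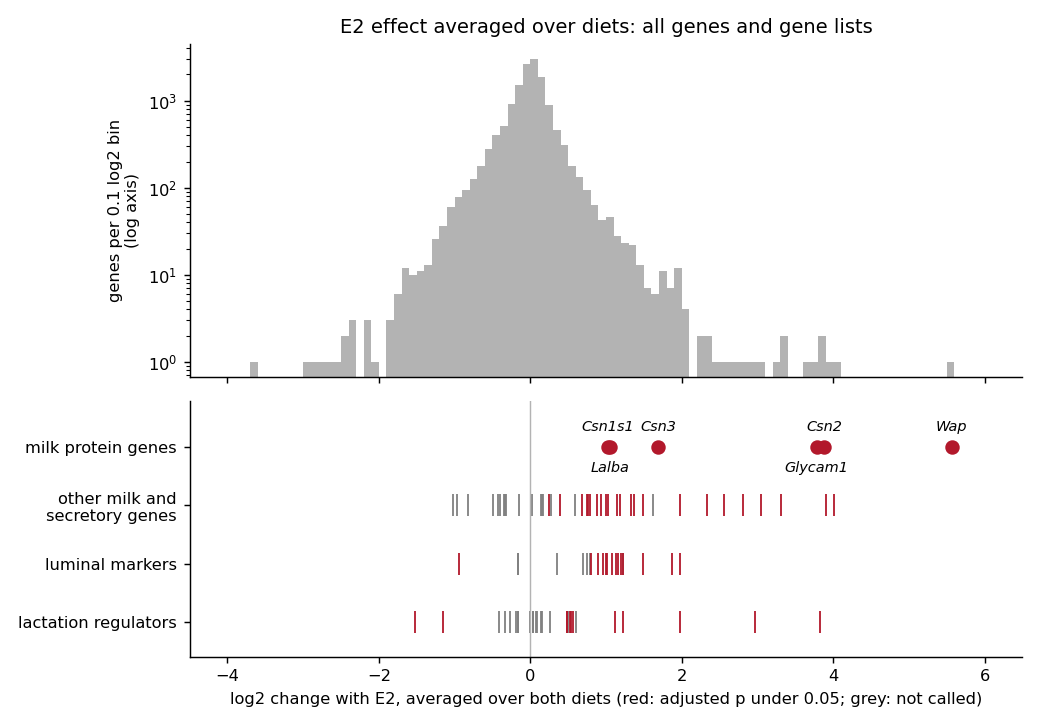
Fitted log2 change with E2, averaged over the diets, of all 14217 genes (upper panel, genes per bin on a log axis) and of milk protein genes, other milk genes, luminal markers and lactation regulators (lower panel; red marks an adjusted p under 0.05). The 6 milk protein genes lie between 1.03 and 5.56, with Wap highest of all genes.

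Genes were also ranked by how closely their values over the 11 samples followed the mean of the 6 members, as the mean absolute difference after centring. The 10 closest genes outside the set were Olah (0.32), Mroh3 (0.37), Prr27 (0.40), Aadat (0.42), Pgr (0.48), Clca1 (0.52), Aldoc (0.53), Slc34a2 (0.54), Zbtb40 (0.54) and Elf5 (0.54). Each of them was nearer to the mean than any member was, since members ranged from 0.66 in Csn3 to 1.35 in Wap. The rank follows the size of a change as well as its pattern. Among the members themselves Csn1s1 and Lalba, on chromosomes 14 and 7, were the closest pair (0.134), followed by Csn3 with Csn1s1 (0.339) and Csn3 with Lalba (0.390). Wap and Csn1s1 were the farthest (2.25), and Csn2 was about as far from Glycam1 (0.987) as from Wap (1.0).

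Neighbouring genes did not all move with the members. RefSeq places 45 protein-coding genes within 5 places of a member, of which 21 were measured. Of these, 4 rose with E2 and 2 fell, where 6.73% of all genes were called higher and 5.51% lower. Near the caseins on chromosome 14, Prr27 rose by 3.04 ± 0.36 (limma adjusted p = 0.00487) and Sult1e1, which sulfates estrogens, by 0.89 ± 0.21 (0.03). Smr3a (-0.02), Cabs1 (0.01) and Vcsa2 (0.03), in the same stretch, were not called.

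Ramp3, which encodes a receptor activity-modifying protein and lies next to Wap, rose by 0.82 ± 0.12 (limma adjusted p = 0.00756). Its change was 0.23 ± 0.16 in soy-fed rats (0.455) and 1.42 ± 0.18 in casein-fed rats (0.012), but the difference between the diets, -1.19 ± 0.24, was not called (adjusted p = 0.477). Tbrg4, on the other side of Wap, gave 0.14 (0.304), and Igfbp3, an IGF-binding protein gene farther along, fell by 1.70 ± 0.35 (0.02). On chromosome 7, Spmip11 near Lalba rose by 0.67 ± 0.12 (0.012), and Ppp1r1a near Glycam1 fell by 1.27 ± 0.26 (0.0194).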

How the data were processed

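The authors' deposited table held 31099 probe sets on 12 arrays, as log2 values centred on each probe set's median (the largest median was 5e-07). Per the submitters' processing notes GCOS, Affymetrix's array software, was used (no version). How probe sets were summarised and normalized, and the log base, are not stated in any source at hand. The base was taken as 2 because no probe set spanned more than 9.85 units, and the folds depend on it. Array medians lay between -0.0246 and 0.0112, and no normalization was added.

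Of the probe sets, 20826 carried 1 gene in the platform annotation, 436 several, 9780 were unnamed here and 57 were controls. By gene identifier 20758 matched RefSeq (GRCr8), with 0 symbols changed. Probe sets of a gene were averaged, giving 14217 genes.

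Group means were fitted with limma 3.58.1 in R 4.3.3 (lmFit and eBayes without a trend) to 11 samples with 7 residual degrees of freedom, casein + E2 counting as 2 samples. The 6 contrasts were tested two-sided, with Benjamini-Hochberg adjustment over all genes at 0.05. Intervals are 95% limits of the fit. On the scale relative to luminal markers, each gene's own variance was used, because all genes share the subtracted mean. The code was tested on simulated data with known changes. The number of arrays limits the precision.

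The members and gene lists were chosen with earlier results of these data known, and the promoter motifs and the 9-base run with the sequences in view, so a list's direction is no independent evidence. Elf5, Gata3 and Foxa1 stand in both the luminal and regulator lists, and Muc1 in the luminal and milk lists. Named genes were the members, the 10 genes nearest to their mean (without LOC or RGD symbols), the 8 called and 4 uncalled milk genes of greatest change, 10 fixed regulators, measured neighbours within 5 places in RefSeq's order of protein-coding genes, and the 2 genes of each marker list that varied most; the text prints most of them. Jak2, Areg, Igf1, Ghr, Krt7, Rbp4 and St3gal6 were named after their values were seen. Same-numbered pools did not deviate together (correlations of deviations from -0.42 to 0.46), so pool numbers were not used as pairs. Normalization, array weights, pool averaging, a spike-in term, the samples fitted and a pool number block were varied.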

Additional observations from a re-analysis of the deposited data

Results flagged for a closer look

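Among 10216 probe sets without a single gene name, which entered none of the comparisons above, 331 were called higher and 254 lower with E2 averaged over diets, and 22 were called higher by more than Csn3 was. Of the probe sets with the highest changes, 1392295_a_at rose by 3.73 ± 0.46 (limma adjusted p = 0.00581), with 0.88 or more in every E2 pool and -0.88 or less in every pool without E2. Probe set 1392948_at rose by 3.56 ± 0.27 (limma adjusted p = 0.00154), with 0.57 or more in every E2 pool and -0.57 or less in every other pool. Probe set 1392948_at stood at 0.57 to 2.16 in soy + E2 pools and at 3.26 to 3.55 in casein + E2 pools. They drew attention because they had the highest called rises in data no comparison used, and the annotation used here gives them no gene. Limits that mirror each other about 0, here and for Lpo and Elf5 above, follow from the centring on the median when all E2 arrays lie above the others.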

How the results depend on the processing

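The averaged E2 effect had 6 called members also with quantile normalization, 12 separate arrays, array weights and the replicate block on pool number. It had 4 relative to luminal markers, where most genes shifted down and the threshold was easier to pass. Leaving out 1 array at a time gave 2 to 6, and leaving out casein pools 2 and 3, chosen after seeing the data, gave 3. In casein-fed rats the 2 calls became 4 with quantile normalization or array weights, 5 with 12 separate arrays, 3 with the replicate block, 1 with arrays centred on their median or a spike-in term, and 0 with only the contrast's groups, relative to luminal markers, or without casein pool 2 plus casein pool 3 or soy pool 2. Single left-out arrays gave 0 to 2. In soy-fed rats the 2 calls became 5 with quantile normalization, 6 with array weights and 0 relative to luminal markers, stayed 2 with the block, and ranged from 0 to 3 over left-out arrays. With only the contrast's groups, Wap and Csn2 passed there (limma adjusted p = 0.0434 for each) and Csn3 did not (0.115). Soy without E2 gave 2 calls with array weights, and 0 otherwise. No alternative gave a call for the interaction or for soy with E2. The cause of these shifts was not tested.

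Relative to luminal markers the median of all genes moved to -0.91 for E2 in soy-fed and -0.82 in casein-fed rats, and to 0.30 for soy without E2 and 0.23 with it. Within each diet that fit called 0 of all genes for E2. Counts over all genes depended on the fit. In casein-fed rats 211 higher and 135 lower became 326 and 256 with quantile normalization, 746 and 623 with 12 arrays, 485 and 336 with the block, 789 and 619 with weights, and 107 and 93 with the contrast's groups. In soy-fed rats 26 and 5 became 167 and 70 with quantile normalization, 159 and 67 with 12 arrays, 1079 and 955 with weights, and 6 and 3 with the contrast's groups. For the average, 957 and 784 became 1399 and 1242 with 12 arrays and 1783 and 1535 with weights.

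Directions turned only among changes that no fit called. In the interaction, Csn1s1 became 0.21 without casein pools 2 and 3 and 0.44 without casein pool 2 and soy pool 2, Lalba 0.01 and 0.30, and Glycam1 0.50 and 1.35. Glycam1 was 0.40 there with quantile normalization and 0.76 with the spike-in term. Without casein pool 2 the interactions of Wap and Csn2 were 2.04 and 2.74, against 0.98 and 0.99 with it. Over left-out arrays the interactions ranged from -0.26 to 0.23 (Csn1s1), -0.50 to 0.16 (Lalba) and -1.28 to 0.98 (Glycam1). For soy without E2, Lalba was 0.11 relative to luminal markers, and Glycam1 was -0.59 with the spike-in term, -0.07 without casein pools 2 and 3 and -0.92 without casein pool 2 and soy pool 2. Left-out arrays gave -0.55 to 0.11 for Lalba (-0.69 without casein pool 2 and soy pool 2) and -0.56 to 1.70 for Glycam1. For soy with E2, Wap was 0.0064 relative to luminal markers, and Csn2 was 0.19 with quantile normalization, 0.037 with weights and 0.23 relative to luminal markers. Left-out arrays gave -0.60 to 0.42 for Wap, -0.088 to 0.12 for Csn2 and -0.092 to 0.68 for Glycam1. Signal over background could not be examined, because the values are centred.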
